A study of Mus musculus with 20 samples.

Results

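Keratins are the intermediate filament proteins of epithelial cells. The genes described here are the keratins whose symbol is Krt followed by a number alone, with Krt77 and the keratin-associated proteins left out, measured by probe sets that the array annotation assigns to a single gene. There were 43 such genes of 18194 genes with a single-symbol probe set. Of the 43, 34 gave a signal above the array median on at least 2 arrays and were tested, among 14045 genes tested. The rule reads symbols and no measured value, but it was set with earlier results of these data known. Another 5 keratin symbols on the array (Krt6a, Krt6b, Krt33a, Krt33b and Krt77) do not meet it.

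A keratin filament is built from pairs, each of a type I (acidic) and a type II (basic) protein, and different epithelia use different pairs. Simple epithelia, such as gut lining, trophoblast and the outer layers of the early embryo, use Krt8 with Krt18. The basal layer of stratified epithelium uses Krt5 with Krt14, and its cells switch to Krt1 with Krt10 as they leave that layer. The mucosa of mouth and oesophagus uses Krt4 with Krt13, and the hair follicle has sets of its own for the inner root sheath, which moulds the growing hair, and for the hair shaft. In the gene table, 22 of the 43 lie on chromosome 11 and 21 on chromosome 15, the type I and type II clusters of the mouse. The exception is Krt18, a type I keratin that lies beside its partner Krt8 on chromosome 15.

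The samples were whole wild-type C57BL/6 embryos without the amnion, of mixed sex and free of specific pathogens. The 4 daily stages of embryonic days E7.5 to E10.5 had 3 arrays each. The 4 stages at intervals of 2 days, E12.5 to E18.5, had 2 each, which makes 20 arrays at 8 stages. No genotype or treatment was compared. Each array measured total RNA pooled from several embryos, and the series describes the arrays of a stage as biological replicates. In RNA of whole embryos, fewer cells of a type and less RNA per cell cannot be told apart, and a sample holds every tissue of the embryo. Values are MAS5 signals on a linear scale. Changes are differences of log2(signal + 25.9) with their SE from a limma fit over all arrays, a scale that understates the change of weak signals. A change counts as called when its adjusted p is below 0.05 and its size at least 2-fold, and the words "rose" and "fell" are kept for called changes. Signals of different genes come from different probe sets and are not compared with each other. Where arrays of stages are said not to overlap, this describes the values only. With 2 or 3 arrays a stage it can occur without a change, and the share of all genes is not given.

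The arrays fell into sets. Array medians ran from 156 to 178 in the later set (8 arrays, E12.5 to E18.5) and from 67.2 to 91.1 in the earlier set (12 arrays, E7.5 to E10.5). The geometric mean of the poly-A control probe sets, which measure RNA added during labelling, was 288 to 455 in the later set and 14.4 to 34.1 in the earlier one. Between E12.5 and E10.5, array set and stage therefore cannot be told apart, and that step is given apart from the others. Within a stage the arrays correlated at 0.978 to 0.991 over all genes.

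Few keratins were called on the earlier side of this boundary and most on the later side. At E10.5 against E7.5, 4 of the 34 tested fell and 2 rose, where 7.49% of all genes tested fell and 16.0% rose. Among them the pair of simple epithelium, Krt8 and Krt18, and with it Krt19, fell about 8- to 9-fold, while Krt5 and Krt14 of the basal layer rose about 2- to 3-fold from low signals. At E18.5 against E12.5, 29 of the 34 rose and 0 fell, where 15.2% of all genes tested rose and 6.44% fell. Those that rose included members of every epithelial group named above, and 8 of the 34 had passed the filter through E18.5 arrays alone and 5 through those of E16.5 and E18.5 alone. The largest rise was that of Krt1, the type II keratin of the upper epidermis, at 186-fold on the scale of the fit.

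**Figure D1:**
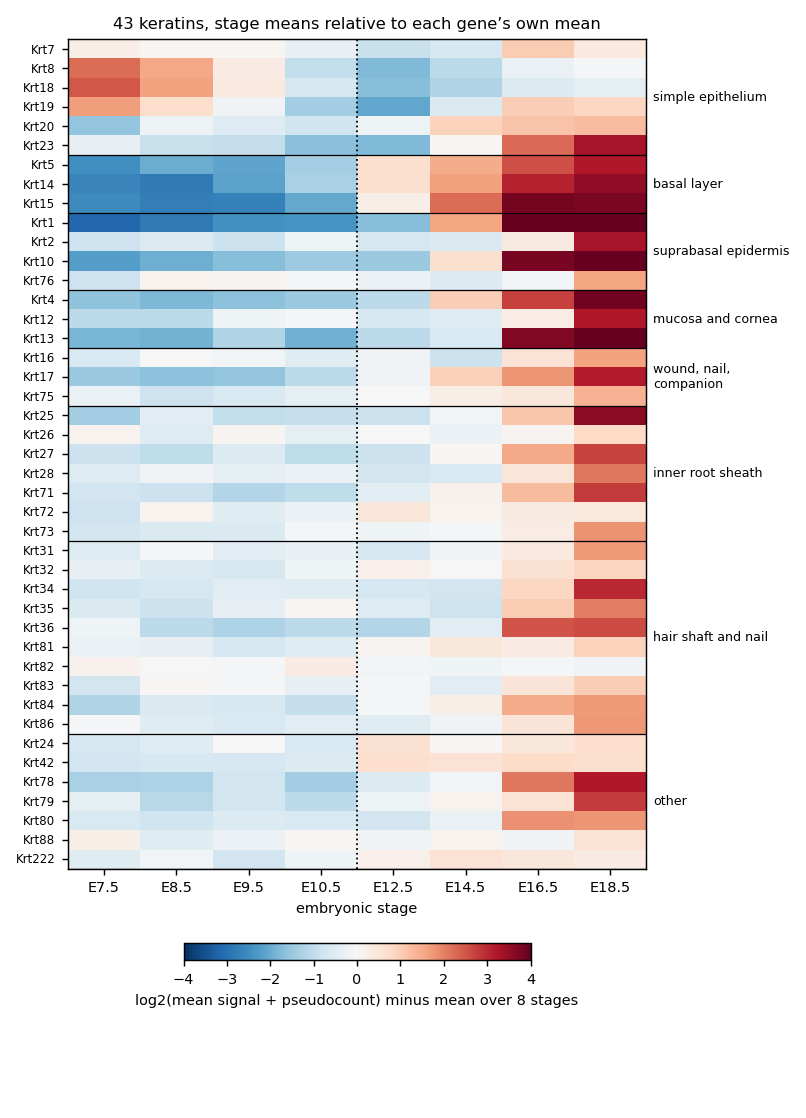
Stage means of all 43 keratins, as log2(mean signal + 25.9) minus the gene's own mean over the 8 stages, with genes in rows by role and stages in columns. Colours are cut off at 4 units either way, and the dotted line separates the array sets. Krt8, Krt18 and Krt19 are highest at E7.5, and most other rows are highest at E16.5 or E18.5.

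Krt8 and Krt18 each had their highest signals at E7.5. Krt8, the type II partner, had signals of 11496, 11804 and 10969 at E7.5, 8721, 6115 and 6656 at E8.5, 3303, 3124 and 2733 at E9.5, and 1391, 1082 and 1129 at E10.5. Krt18, the type I partner, had 14268, 15828 and 14805 at E7.5, 8792, 7813 and 8091 at E8.5, 3196, 3625 and 3664 at E9.5, and 1602, 1626 and 1676 at E10.5. For both genes no array of a stage overlapped with those of the next. The change at E10.5 against E7.5 was -3.23 ± 0.13 for Krt8 (9.38-fold lower, limma adjusted p = 2.31e-14) and -3.17 ± 0.07 for Krt18 (9.02-fold lower, limma adjusted p = 9.61e-18).

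The fall of the pair passed the threshold at separate steps. At E9.5 against E8.5, Krt8 changed by -1.21 ± 0.13 and Krt18 by -1.23 ± 0.07. These were the 2 of the 34 tested keratins that fell, where 1.68% of all genes tested fell. At E10.5 against E9.5, 3 keratins fell, where 0.513% of all genes did: Krt8 (-1.33 ± 0.13), Krt18 (-1.08 ± 0.07) and Krt19. At these steps 0 keratins rose in limma, where 2.48% and 3.15% of all genes rose, and 1 and 3 were higher at an unadjusted p below 0.05. At E10.5 against E9.5, Krt5 and Krt14 were higher with limma adjusted p = 0.00183 and 0.0386, by less than 2-fold.

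Krt19, a type I keratin of simple and glandular epithelium, varied more between arrays. Its signals were 1574, 3792 and 2227 at E7.5, 1654, 1150.5 and 1086 at E8.5, 686, 914 and 552 at E9.5, and 345, 265 and 232 at E10.5. The E7.5 and E8.5 ranges overlapped, and those of E10.5 lay below all others. It fell by 1.27 ± 0.23 on the log2 scale at E10.5 against E9.5 (limma adjusted p = 0.000638) and by 2.99 ± 0.23 at E10.5 against E7.5 (limma adjusted p = 9.53e-10).

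The other keratins of simple epithelium did not follow that fall alike. Krt7, a type II keratin of ducts, bladder and other simple linings, had 366, 290.1 and 305 at E10.5, against 217, 772 and 472 at E7.5. These arrays overlapped and the change of -0.41 ± 0.26 was not called (limma adjusted p = 0.181). Krt20, a type I keratin of gut and bladder surface cells, was the 1 keratin that rose at E8.5 against E7.5, where 6.27% of all genes rose and 4.93% fell. None of the 34 tested keratins fell at that step. At an unadjusted p below 0.05, 5 were lower: Krt8, Krt18, Krt19, Krt36 and Krt79. All of these but Krt79 also had a limma adjusted p below 0.05 (0.000204, 9.91e-09, 0.00505 and 0.0294 in that order). Their changes were under the 2-fold limit. Krt20 had 108, 93.4 and 79.2 at E8.5, against 5.37, 36 and 18.8 at E7.5, a change of 1.43 ± 0.25 (limma adjusted p = 0.000106). The E8.5 signals are close to the array median, and the call was lost with a pseudocount 4 times larger.

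Krt23, a type I keratin found in gut and other epithelia, was the fourth keratin that fell at E10.5 against E7.5. Its signals were 7.51, 11.5 and 4.35 at E10.5, against 83.1, 15.5 and 79.4 at E7.5, a change of -1.22 ± 0.46 (limma adjusted p = 0.0295). All 6 arrays were low, 1 of the E7.5 arrays lay near those of E10.5, and 7 of 18 alternatives lost the call. In this comparison the median change was 0.17 for the 34 tested and for all 43 keratins, and 0.11 for all genes tested.

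Markers of tissues around the embryo proper, and of gut and bladder, mostly fell at E10.5 against E7.5 too. Of all genes tested, 7.49% fell and 16.0% rose. Of the 10 visceral endoderm markers, the epithelium that covers the early embryo and lines the yolk sac, 9 fell at E10.5 against E7.5, led by Spink1 (-7.94 ± 0.20). Their summed signal was 10596 to 11925 at E10.5 and 105601 to 119366 at E7.5. Of 7 trophoblast markers tested, all 7 fell, led by the transcription factor Elf5 (-5.72 ± 0.36), and the 8 on the array summed to 1102 to 1349 at E10.5 and 9622 to 16590 at E7.5. Of 9 gut and bladder markers, 5 fell and 1 rose, with sums of 762 to 889 at E10.5 and 4460.5 to 5766 at E7.5. No marker of these 3 lists was at 0 on any array, but a MAS5 signal above 0 does not by itself show expression. Both visceral endoderm and trophoblast are known to use Krt8 and Krt18. By step, 9 visceral endoderm and 7 trophoblast markers fell at E8.5 against E7.5 (4.93% of all genes). At that step Krt8 changed by -0.69 ± 0.13 and Krt18 by -0.86 ± 0.07 (limma adjusted p = 0.000204 and 9.91e-09). Both were lower but under the 2-fold limit, and so not called. At E9.5 against E8.5, 9 visceral endoderm markers and 1 trophoblast marker fell (1.68% of all genes). At E10.5 against E9.5, 3 and 0 of them fell (0.513% of all genes), and 1 visceral endoderm marker rose (3.15%). The part of these tissues in the fall of the simple keratins was not tested.

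**Figure D2:**
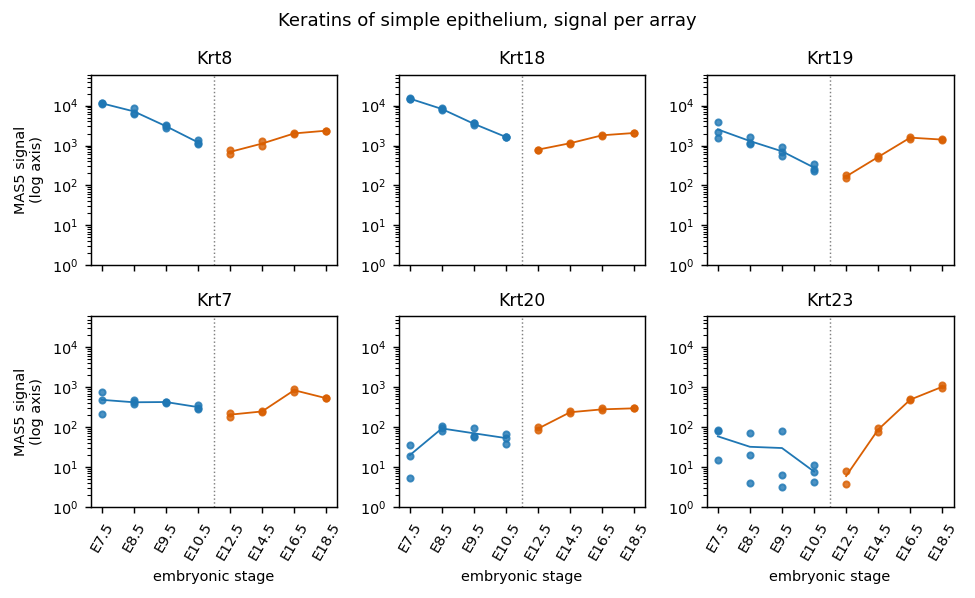
MAS5 signal (log axis) of the 6 keratins of simple epithelium by embryonic stage. Points are arrays, lines join stage means within an array set (blue, E7.5 to E10.5; orange, E12.5 to E18.5), and the dotted line separates the sets. Krt8, Krt18 and Krt19 descend from E7.5 to E10.5 and climb from E12.5 on. They are lower at E12.5 than at E10.5, a step at which array set and stage cannot be told apart. Krt8 lies at 631 to 754 at E12.5 and, in the other array set, at 10969 to 11804 at E7.5.

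From E12.5 on the same keratins climbed again. Krt8 had signals of 754 and 631 at E12.5, 1284 and 958 at E14.5, 2093 and 1929 at E16.5, and 2342 and 2369 at E18.5. Krt18 had 789 and 793, 1099 and 1186, 1732 and 1881, and 2080.3 and 2048 at those stages. No single step between these stages reached a call. In neither gene did the arrays of neighbouring stages overlap, which with 2 arrays a stage can occur without a change. Over the whole interval, E18.5 against E12.5, Krt8 rose by 1.73 ± 0.16 (limma adjusted p = 1.66e-08) and Krt18 by 1.36 ± 0.09 (limma adjusted p = 2.14e-10).

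Within E12.5 to E18.5, Krt19 and Krt7 had their highest mean at E16.5. Krt19 had 178 and 158 at E12.5, 482 and 552 at E14.5, 1676 and 1478 at E16.5, and 1388 and 1429 at E18.5. Krt7 had 234 and 179.8 at E12.5, 248 and 251 at E14.5, 922 and 774 at E16.5, and 543 and 526 at E18.5. Krt19 rose at both E14.5 against E12.5 (1.48 ± 0.29) and E16.5 against E14.5 (1.56 ± 0.29), and Krt7 at the second of these (1.66 ± 0.32). Neither was called at E18.5 against E16.5, although their E18.5 arrays lay below those of E16.5.

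Krt20 and Krt23 rose from signals below the median of their arrays. Krt20 had 100.1 and 85.3 at E12.5, 227 and 249.5 at E14.5, 265 and 298 at E16.5, and 301 and 296 at E18.5. Krt23 had 3.89 and 8.13 at E12.5, 98 and 77.4 at E14.5, 503 and 480.1 at E16.5, and 1116 and 952 at E18.5. Krt20 rose by 1.46 ± 0.30 and Krt23 by 5.05 ± 0.57 at E18.5 against E12.5 (limma adjusted p = 0.000455 and 3.27e-07). All 6 keratins of simple epithelium thus rose over this interval. Beside them, 5 of the 9 gut and bladder markers rose, where 15.2% of all genes tested did. The gut lectin Lgals4 led them (6.12 ± 0.32), and the list summed to 7658 to 8694 at E18.5 and 1012 to 1272 at E12.5. Visceral endoderm markers, many of which fetal liver and gut also express, summed to 112658 to 114668 at E18.5 and 33302 to 34599 at E12.5. The part of these tissues was not tested.

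The promoters of 4 keratins are shown to set the pair of simple epithelium beside 1 keratin of the basal layer and 1 of the suprabasal epidermis. They are the 100 bases upstream of the transcription start, 5′ to 3′ on the strand of the gene, from the RefSeq promoter table on GRCm38.p6, with the letters TATAA in capitals. Krt8 (chr15:102004343-102004442, minus strand) and Krt18 (chr15:102028116-102028215, plus strand) are neighbours read away from each other. Krt5 (chr15:101712906-101713005, minus strand) is the type II basal keratin and Krt10 (chr11:99389365-99389464, minus strand) the type I suprabasal one.
Krt8: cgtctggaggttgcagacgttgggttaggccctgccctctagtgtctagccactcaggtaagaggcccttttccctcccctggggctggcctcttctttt
Krt18: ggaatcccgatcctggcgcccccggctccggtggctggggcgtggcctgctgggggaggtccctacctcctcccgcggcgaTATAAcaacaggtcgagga
Krt5: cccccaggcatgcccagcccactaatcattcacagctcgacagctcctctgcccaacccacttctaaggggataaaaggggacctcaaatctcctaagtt
Krt10: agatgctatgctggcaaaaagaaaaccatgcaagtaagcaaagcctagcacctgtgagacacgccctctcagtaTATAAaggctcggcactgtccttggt

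Of the 43 keratins, 30 have a promoter in that table, and each was counted once, by the first one listed. The shares of all promoters count every promoter in the table, without limiting a gene to 1. Searched on both strands of the 250 bases upstream, TATAA was found in 19 of the 30 keratin promoters (63.3%), against 22.8% of all 32851 promoters. Within the last 50 bases before the start, a window chosen after the first count was seen, it was found in 17 of 30 (56.7%), against 6.36% of all. The TATAA of Krt10 begins 26 bases before the start and that of Krt18 19 bases before it, while the windows printed for Krt8 and Krt5 hold none. Only these exact letters were searched. Near variants were not counted, such as ATAAAA, which the Krt5 window holds, so a promoter without TATAA may still have a similar element. The GC box GGGCGG, a site of the Sp1 family, was found in 2 of 30 keratin promoters, Krt7 and Krt75, against 32.7% of all. The AP-2 motif GCCNNNGGC was in 3 (Krt7, Krt18 and Krt42), against 13.7% of all, and the AP-1 motif TGANTCA in 1 (Krt13), against 6.75%. Matches of different motifs may overlap. These are matches of letters, and neighbouring keratin genes share ancestry, so that the promoters are not independent of each other.

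The keratins of the basal layer were low in the first array set. Krt5 had signals of 141, 137 and 188 at E10.5, against 41.6, 76 and 63 at E7.5, and Krt14, its type I partner, had 101, 80.1 and 131 at E10.5, against 6.07, 24.9 and 45.5 at E7.5. For both genes the E10.5 arrays lay above those of E7.5. Krt5 rose by 1.08 ± 0.15 and Krt14 by 1.40 ± 0.30 (limma adjusted p = 4.4e-06 and 0.000534). The call of Krt5 was lost in 6 of 18 alternatives, and that of Krt14 in 2. Another Krt14 probe set changed by 1.36 and the last by 0.01. Krt15, a type I keratin of basal cells and of the hair follicle bulge in the adult, stayed between 3.97 and 53.7 on these 12 arrays and was not called. Trp63, the p63 transcription factor that basal cells need, rose by 2.35 ± 0.18 in the same comparison.

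All 3 basal keratins were higher at E12.5 than at E10.5, the step at which array set and stage cannot be told apart. Krt5 had 742 and 679 at E12.5, against 141, 137 and 188 at E10.5. Krt14 had 480.1 and 483 at E12.5, against 101, 80.1 and 131 at E10.5. Krt15 had 193 and 256 at E12.5, against 6.62, 53.7 and 18.2 at E10.5. The changes were 2.03 ± 0.17, 1.98 ± 0.34 and 2.36 ± 0.29 in the order given. At this step 4 of the 34 tested keratins rose and 1 fell, where 10.6% of all genes tested rose and 2.02% fell. The one that fell was Krt18 (-1.02 ± 0.08), and the fourth that rose was Krt42 (1.26 ± 0.22). The median of all genes shifted by 0.12 here, and by -0.11 under quantile normalization or scaling by the 75th percentile, and the 5 keratins kept their direction under both.

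Within the second array set all 3 basal keratins rose at E18.5 against E12.5. Krt5 had signals of 742 and 679 at E12.5, 1164 and 1412 at E14.5, 2617 and 2869 at E16.5, and 4184 and 4366 at E18.5. Krt14 had 480.1 and 483, 996 and 973, 2885 and 2489, and 3852 and 3653 at those stages. Krt15 had 193 and 256 at E12.5, 1049.9 and 929 at E14.5, 3336 and 2775 at E16.5, and 3016 and 2760.3 at E18.5. Arrays of neighbouring stages did not overlap in Krt5 and Krt14, and in Krt15 they overlapped between E16.5 and E18.5. Krt15 was called a step earlier than the others, at E14.5 against E12.5 (2.03 ± 0.31, limma adjusted p = 0.000237), and all 3 were called at E16.5 against E14.5, the 1 step at which Krt5 and Krt14 were called. None was called at E18.5 against E16.5, where Krt15 changed by -0.08 ± 0.31. Over the interval Krt5 rose by 2.55 ± 0.19, Krt14 by 2.90 ± 0.37 and Krt15 by 3.55 ± 0.31.

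Krt1 and Krt10, the pair of the suprabasal epidermis, rose at each of the first 2 steps after E12.5. Krt1 had signals of 96.9 and 113 at E12.5, 1142 and 1339 at E14.5, 12898 and 15489 at E16.5, and 25426 and 23122 at E18.5. Krt10 had 610.4 and 643 at E12.5, 2772 and 2781 at E14.5, 20888 and 29719 at E16.5, and 38003 and 36176 at E18.5. In both genes the arrays of neighbouring stages did not overlap. Krt1 rose by 3.27 ± 0.35 at E14.5 against E12.5 and by 3.49 ± 0.35 at E16.5 against E14.5. Krt10 rose by 2.10 ± 0.17 and 3.15 ± 0.17 at these steps. Neither was called at E18.5 against E16.5. Over the interval Krt1 rose by 7.54 ± 0.35 and Krt10 by 5.83 ± 0.17 (limma adjusted p = 1.85e-12 and 1.26e-15).

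Krt10 was already above the array median before E12.5. It had 692, 596 and 617 at E10.5, against 379, 361 and 352 at E7.5, with no overlap between these stages. Its change of 0.76 ± 0.14 had an adjusted p of 6.7e-05 in limma and was under the 2-fold limit. Krt1 stayed between 11.3 and 90.3 on the 12 arrays. The E12.5 signals of Krt10, 610.4 and 643, lay within the range of its E10.5 arrays.

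Krt2 and Krt76 are the other suprabasal members. Krt2, a type II keratin of the uppermost living epidermal cells, had 7.83 and 6.38 at E12.5, 16.46 and 1.63 at E14.5, 46.2 and 35.8 at E16.5, and 579 and 401 at E18.5. It stayed low through E16.5 and rose by 2.93 ± 0.39 at E18.5 against E16.5 (limma adjusted p = 2.3e-05). Krt76, a type II keratin of the palate, did not pass the filter. It had 168 and 149.5 at E18.5, against 11 and 41.2 at E12.5, and with no filter its change of 1.89 was called (limma adjusted p = 0.002).

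The mucosal pair rose in the same interval, its members called at different steps. Krt4, the type II partner, had signals of 79.3 and 67.1 at E12.5, 421 and 345 at E14.5, 1413 and 1284 at E16.5, and 3172 and 2718 at E18.5. Krt13, the type I partner, had 48.4 and 31.8 at E12.5, 64.4 and 64.1 at E14.5, 1679 and 1867 at E16.5, and 3842 and 3615 at E18.5. Krt4 was called at all 3 steps, while Krt13 was called at 1, E16.5 against E14.5, where its change of 4.32 ± 0.40 was the largest of any keratin at a step. At E14.5 against E12.5 the change was 2.04 ± 0.32 for Krt4, and that of Krt13 was not called. At E18.5 against E16.5 the change was 1.11 for Krt4 and 1.06 for Krt13. The Krt4 call at that step was lost in 5 of 15 alternatives. The difference between the 2 genes was not tested. Over the interval Krt4 rose by 4.90 ± 0.32 and Krt13 by 5.84 ± 0.40, with other probe sets at 5.81 for Krt4 and at 3.37 and 2.37 for Krt13.

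Krt12, the type I keratin of the corneal epithelium, came late. Its signals were 26.9 and 10.3 at E12.5, 18.9 and 27.7 at E14.5, 58.5 and 58.4 at E16.5, and 577 and 645 at E18.5. The E18.5 arrays stood apart from all other stages. It rose by 2.91 ± 0.42 at E18.5 against E16.5 (limma adjusted p = 6.78e-05).

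**Figure D3:**
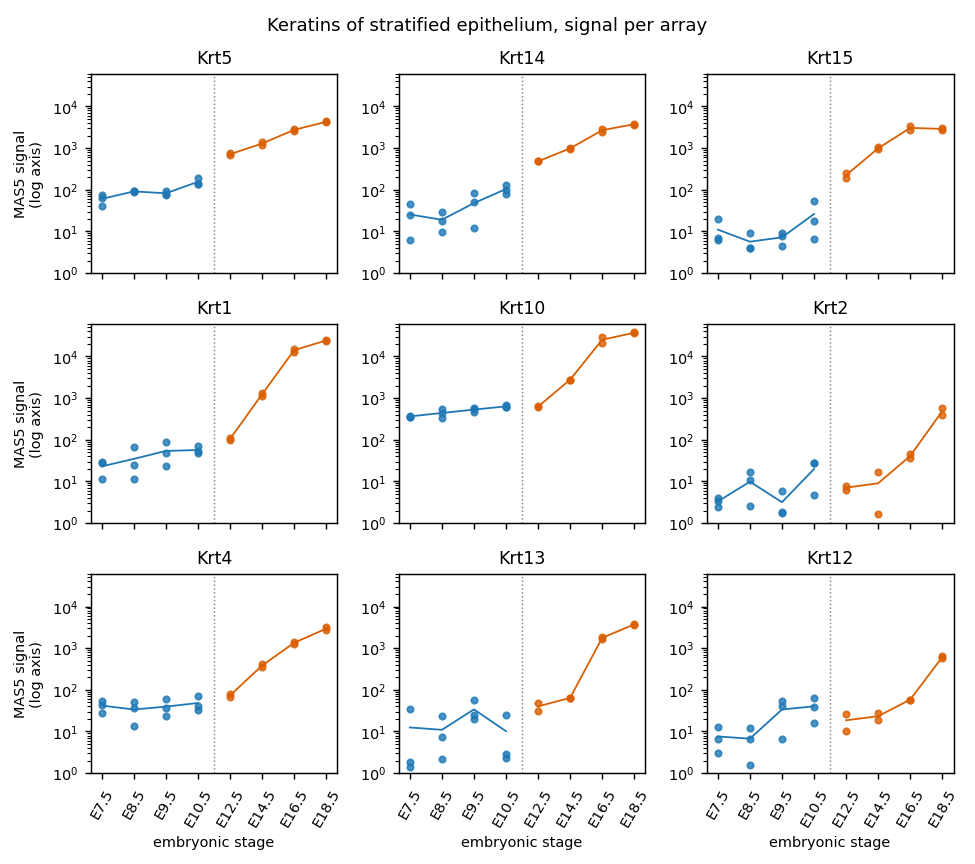
MAS5 signal (log axis) of 9 keratins of stratified epithelium by embryonic stage, basal in the top row, suprabasal in the middle and mucosa and cornea at the bottom. Points are arrays, lines join stage means within an array set (blue, E7.5 to E10.5; orange, E12.5 to E18.5). At E18.5 Krt1 and Krt10 lie between 23122 and 38003, against 96.9 to 643 at E12.5, while Krt2 and Krt12 leave the low range at E18.5.

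Keratins of wound edges, nail and the follicle companion layer rose less uniformly. Krt17, a type I keratin of embryonic periderm and skin appendages, had 72.7 and 59.2 at E12.5, 169 and 171 at E14.5, 297 and 330.2 at E16.5, and 863 and 904 at E18.5. It rose by 3.31 ± 0.34 at E18.5 against E12.5, and its call at E14.5 against E12.5 (limma adjusted p = 0.0464) was lost in 11 of 15 alternatives. Krt16, a type I keratin induced at wounds, had 211 and 201 at E18.5, against 31.3 and 56.1 at E12.5, a rise of 1.76 ± 0.48 that was lost without the first E12.5 array. Krt75, a type II keratin of the companion layer, did not pass the filter. It had 135 and 103 at E18.5, against 50.8 and 9.497 at E12.5, and with no filter its change of 1.47 was called (limma adjusted p = 0.0158).

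The inner root sheath keratins rose from signals below the array median. Krt25, a type I keratin, had 17 and 24.5 at E12.5, 64.6 and 39.5 at E14.5, 154 and 159.6 at E16.5, and 898 and 1097 at E18.5. Krt71, a type II partner of it, had 33.3 and 45.3 at E12.5, 79.9 and 66.8 at E14.5, 156 and 213 at E16.5, and 517 and 652 at E18.5. In both the stages followed each other without overlap. At E18.5 against E12.5 Krt25 rose by 4.45 ± 0.35 and Krt71 by 3.22 ± 0.36 (limma adjusted p = 2.58e-09 and 3.44e-07).

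Other sheath keratins rose too, Krt27 and Krt28 among them, type I genes of the same stretch of chromosome 11 as Krt25. Krt27 had 327 and 479 at E18.5, against 9.42 and 11.5 at E12.5, and rose by 3.54 ± 0.37. Krt28 had 216 and 219 at E18.5, against 1.74 and 15.4 at E12.5, and rose by 2.85 ± 0.52. Krt73, a type II sheath keratin, had 252 and 229 at E18.5, against 39.1 and 46.5 at E12.5, and rose by 1.96 ± 0.53. Of the 7 sheath members, 5 were tested and all 5 rose, where 15.2% of all genes tested rose, and the others did not pass the filter. The count has to be read with the filter: Krt25, Krt28 and Krt73 were above the array median at E18.5 alone, and Krt27 and Krt71 at E16.5 and E18.5 alone. Krt26, which lies between Krt25 and Krt27, had 48.4 and 59.9 at E18.5, against 8.65 and 33.2 at E12.5, and Krt72, which lies between Krt71 and Krt73, had 58.5 and 96.9 at E18.5, against 99 and 62.4 at E12.5. With no filter neither was called (limma adjusted p = 0.0896 and 0.949).

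The promoters of 4 sheath keratins are shown, chosen because they rose at E18.5 against E12.5 and hold TATAA close to the start. That motif and rise occur together here thus follows from the choice. Krt73 rose and holds TATAA there as well and is not printed. They come from the same table and build, with TATAA in capitals. Krt25 (chr11:99322952-99323051), Krt27 (chr11:99351119-99351218) and Krt28 (chr11:99374904-99375003) lie near each other on the minus strand of the type I cluster, and Krt71 (chr15:101743098-101743197, minus strand) lies in the type II cluster. Of the 7 sheath keratins, all with a promoter in the table, 6 hold TATAA in the last 50 bases, Krt26 included and Krt72 not. The motif begins 30 bases before the start in Krt25 and Krt28, 15 before it in Krt27 and 40 before it in Krt71.
Krt25: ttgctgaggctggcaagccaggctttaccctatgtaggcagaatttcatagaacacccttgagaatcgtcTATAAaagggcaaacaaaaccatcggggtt
Krt27: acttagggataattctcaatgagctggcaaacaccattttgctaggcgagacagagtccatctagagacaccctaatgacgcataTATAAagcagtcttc
Krt28: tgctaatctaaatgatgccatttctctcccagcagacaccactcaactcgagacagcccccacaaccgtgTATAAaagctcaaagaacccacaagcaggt
Krt71: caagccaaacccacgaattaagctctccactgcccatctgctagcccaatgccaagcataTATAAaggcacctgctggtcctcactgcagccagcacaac

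Of the 10 keratins of hair shaft, nail and similar hard structures, 7 were tested and 4 rose at E18.5 against E12.5, where 15.2% of all genes tested rose. Of the 4, Krt31 and Krt34 had passed the filter through E18.5 arrays alone and Krt84 through those of E16.5 and E18.5. Krt34, a type I hair keratin, had 9.98 and 5.59 at E12.5, 8.41 and 5.80 at E14.5, 51.4 and 94.2 at E16.5, and 449 and 392 at E18.5. Krt36, a type I hard keratin, had 9.79 and 17.9 at E12.5, 24.1 and 52.5 at E14.5, 383 and 575 at E16.5, and 444 and 588 at E18.5. Krt34 rose at each of the last 2 steps, and Krt36 at E16.5 against E14.5 alone (2.99 ± 0.39), its E16.5 and E18.5 arrays overlapping. Over the interval they rose by 3.73 ± 0.36 and 3.77 ± 0.39.

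Krt31 and Krt84 rose as well. Krt31, a type I hair keratin, had 227 and 241 at E18.5, against 40.1 and 9.09 at E12.5, a change of 2.43 ± 0.54. Krt84, a type II hard keratin, had 191 and 255 at E18.5, against 46.4 and 48.5 at E12.5, a change of 1.75 ± 0.38. Of the 3 tested members not called, Krt32 changed by 0.64 ± 0.31, Krt81 by 0.82 ± 0.36 and Krt83 by 0.99 ± 0.57 (limma adjusted p = 0.0909, 0.0628 and 0.154). Of the 3 that did not pass the filter, Krt35 had 123 and 310.4 at E18.5, against 2.73 and 26.2 at E12.5, and Krt86 had 152 and 137 at E18.5, against 4.41 and 16.9 at E12.5. With no filter both were called, at 2.53 and 2.24. Krt82 reached 6.13 at most from E12.5 on and was not called.

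**Figure D4:**
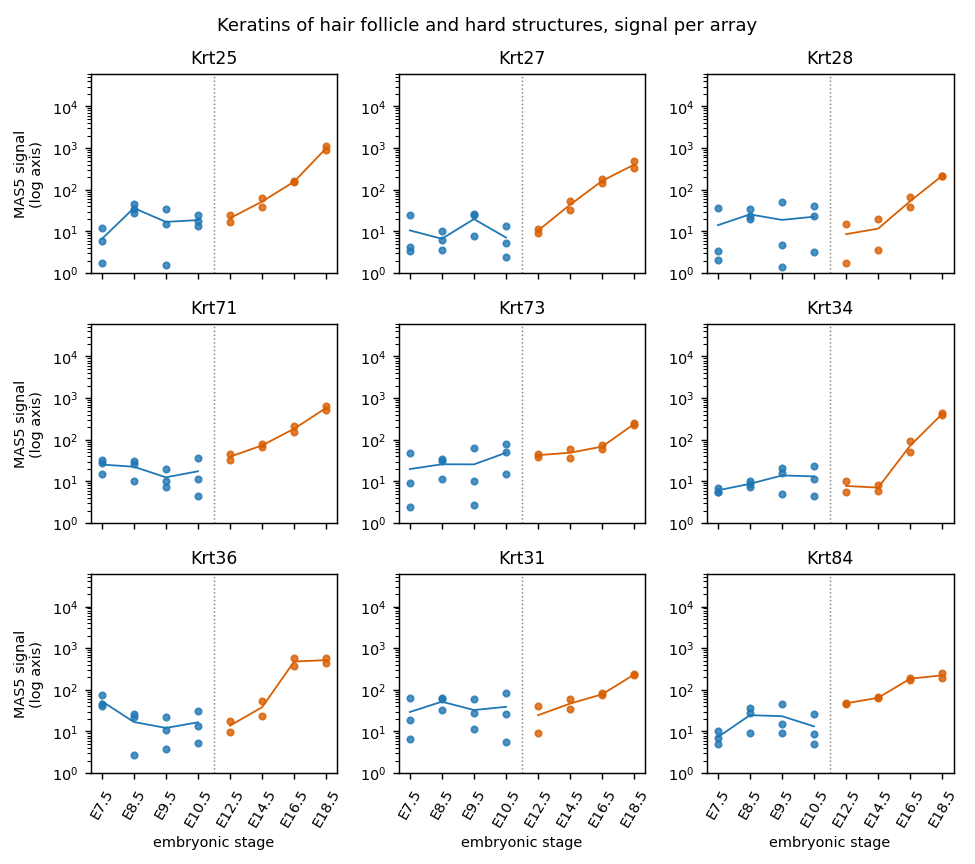
MAS5 signal (log axis) of 9 keratins of the inner root sheath (Krt25, Krt27, Krt28, Krt71, Krt73) and of hair shaft, nail and similar structures (Krt34, Krt36, Krt31, Krt84) by embryonic stage. Points are arrays, lines join stage means within an array set (blue, E7.5 to E10.5; orange, E12.5 to E18.5). The E12.5 arrays lie between 1.74 and 48.5, and those of E18.5 between 191 and 1097.

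The remaining keratins had mixed profiles. Krt78, a type II keratin, had 844 and 804 at E18.5, against 62.9 and 9.91 at E12.5, and rose by 3.91 ± 0.46. Krt79, a type II keratin of the upper hair follicle in the mouse, had 88.6 and 78.8 at E12.5, 96.5 and 128 at E14.5, 156 and 168 at E16.5, and 901 and 792 at E18.5. It rose by 2.21 ± 0.44 at the last step (limma adjusted p = 0.00154). Krt80, a type II keratin, had 68.3 and 54.4 at E12.5, 92.9 and 99.4 at E14.5, 481 and 524 at E16.5, and 487 and 459 at E18.5. It reached its plateau by E16.5, with a rise of 2.11 ± 0.34 at E16.5 against E14.5.

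Krt42 was called in no comparison within an array set. Its signals were 1294 and 1221 at E12.5, against 407, 625 and 522 at E10.5, and at E18.5 it had 1182 and 1247, with a change of -0.05 ± 0.24 against E12.5. The rise at E12.5 rests on a probe set of the type that can bind related transcripts. The other Krt42 probe set averaged 93.1 at E12.5 and 56.1 at E10.5, and the call was lost with the mean of both or without such probe sets. Krt88 changed by 0.67 ± 0.49 at E18.5 against E12.5 and was not called. Krt24 and Krt222 did not pass the filter, and with no filter neither was called.

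Over the interval from E12.5 to E18.5, 29 of the 34 tested keratins (85.3%) rose, where 15.2% of all genes tested rose and 6.44% fell. At an unadjusted p below 0.05 in limma, 30 were higher and 0 lower. With no filter, which takes away the choice by late signals given above, 33 of 43 keratins (76.7%) rose, where 13.9% of 18194 genes did. Above the median on both E12.5 arrays were 10 keratins, a group counted after the values were seen. Of these, 8 rose (80.0%), against 7.90% of the 10919 genes tested that were above it there. The exceptions were Krt42 and Krt81. The median change was 2.89 for the 34 tested keratins, 2.52 for all 43 with no filter, and -0.09 for all genes tested.

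**Figure D5:**
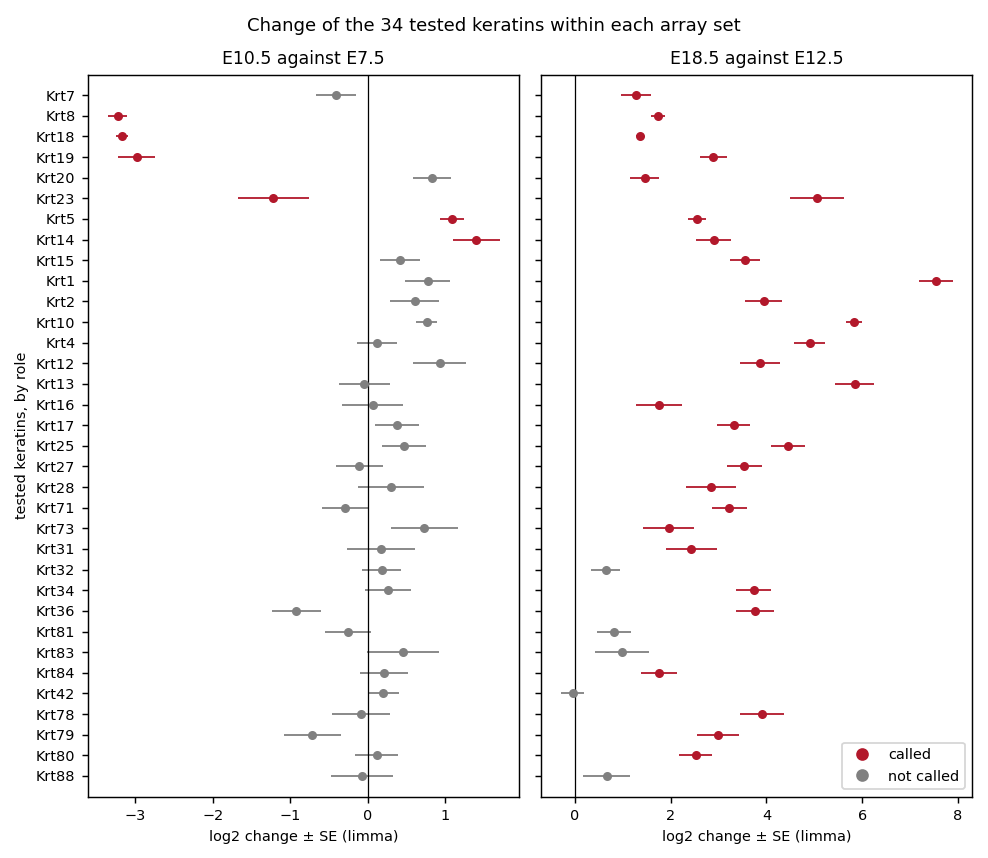
Change of the 34 tested keratins, in rows by role, at E10.5 against E7.5 (left) and E18.5 against E12.5 (right). Points are log2 changes with the SE of the limma fit, red where called. At left 4 keratins lie below 0 as called and 2 above it, and at right 29 are called, all above 0, up to 7.54 for Krt1.

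Different keratins were called at the steps within this interval. In none of the 3 was one of the 34 tested keratins lower at an unadjusted p below 0.05. Keratins outside the rule are not in these counts. Of those, Krt77 had 201 and 222 at E18.5, against 6013 and 6224 at E16.5. Krt6a had 952 and 890 at E18.5, against 2071 and 1887 at E16.5. Krt6b, Krt33a and Krt33b had higher signals at E18.5 than at E16.5. At E14.5 against E12.5, 8 rose and 0 fell, where 3.28% and 0.370% of all genes did: Krt1, Krt4, Krt10, Krt15, Krt17, Krt19, Krt20 and Krt23. At E16.5 against E14.5, 17 rose and 0 fell, where 3.60% and 0.178% of all genes did. For 11 of these 17 it was the first call within the array set: Krt5, Krt7, Krt13, Krt14, Krt25, Krt27, Krt34, Krt36, Krt78, Krt80 and Krt84. At E18.5 against E16.5, 10 rose and 0 fell, where 3.52% and 0.776% of all genes did, and 5 were called for the first time: Krt2, Krt12, Krt28, Krt71 and Krt79. Another 5 (Krt8, Krt16, Krt18, Krt31 and Krt73) were called over the whole interval and at no single step. Leaving out 1 array lowered the count of 8 to 5 whichever of the 4 arrays it was, the count of 17 to 11 or 12, and the count of 10 to between 5 and 7. The order of first calls therefore rests on few arrays for the members near the threshold. Those called in every alternative that gave them a value were Krt1, Krt4, Krt10, Krt15 and Krt19 at the first of these steps. At the next they were Krt1, Krt4, Krt7, Krt10, Krt13, Krt19, Krt36 and Krt80, and at the last Krt2, Krt12, Krt25, Krt34 and Krt79.

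Moderated F tests within each set gave like counts. Over E7.5 to E10.5, 7 of the 34 tested keratins differed between stages (Krt5, Krt8, Krt14, Krt18, Krt19, Krt20 and Krt36), where 27.9% of all genes tested did. Krt36, called here and in no single comparison of these stages, averaged 53.4 at E7.5 and 16.6 at E10.5. Krt23, which fell at E10.5 against E7.5, was not called here (moderated F test, adjusted p = 0.144). Over E12.5 to E18.5, 29 of the 34 differed, where 22.2% of all genes tested did.

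Genes that anchor keratin filaments were called in both long comparisons. Of 16 desmosome and hemidesmosome genes tested, which link keratins to the cell border and the basement membrane, 4 fell and 0 rose at E10.5 against E7.5, with 2 higher at an unadjusted p below 0.05. The 4 were the desmosomal cadherins Dsg2 (-2.92 ± 0.11) and Dsc2 (-1.79 ± 0.18), the plaque protein Pkp2 (-2.12 ± 0.11) and the keratin linker Dsp (-1.22 ± 0.22). At E18.5 against E12.5, 11 rose and 0 fell, with 0 lower at an unadjusted p as well. The largest rises were those of Dsg1a (5.67 ± 0.35), a cadherin of upper epidermis, Pkp1 (4.48 ± 0.22) and Dsc3 (3.47 ± 0.41), and Dsp rose by 2.80 ± 0.27. The median of the 16 was -0.12 in the earlier comparison and 1.72 in the later one, beside 0.11 and -0.09 for all genes. Of all genes tested, 7.49% fell and 16.0% rose in the earlier comparison, and 15.2% rose and 6.44% fell in the later one.

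Regulators of surface epithelium were called in both comparisons. Of 14 tested, 9 fell and 2 rose at E10.5 against E7.5, where 7.49% of all genes tested fell and 16.0% rose. Those that fell included Cdh1, the epithelial cadherin (-2.89 ± 0.17), the splicing factor Esrp2 (-2.62 ± 0.31) and Tfap2c (-2.45 ± 0.21), an AP-2 factor of trophoblast and ectoderm that the trophoblast list also holds. Trp63 and Tfap2a were the pair that rose. In the later comparison, E18.5 against E12.5, 9 rose and 0 fell (0 lower at an unadjusted p), among them Grhl1 (2.62 ± 0.35), Ovol1 (2.29 ± 0.34), Esrp2 (2.16 ± 0.38) and Cdh1 (2.12 ± 0.21). In that comparison 15.2% of all genes tested rose and 6.44% fell. The median of the 14 was -1.42 in the earlier comparison and 1.73 in the later one, beside 0.11 and -0.09 for all genes.

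Of 12 listed regulators of the hair follicle, 11 had a probe set of their own and 8 were tested. Of these 8, 3 rose at E10.5 against E7.5 (Lhx2, Sostdc1 and Shh), and at E18.5 against E12.5 0 rose in limma (2 were higher at an unadjusted p below 0.05) and 4 fell: Msx1 (-2.02 ± 0.14), Msx2 (-1.53 ± 0.17), Lef1 (-1.39 ± 0.19) and Lhx2 (-1.21 ± 0.15). These genes also act in limb, brain and other organs. Of all genes tested, 16.0% rose at E10.5 against E7.5, and 15.2% rose and 6.44% fell at E18.5 against E12.5. Foxn1, Hoxc13 and Edar of the same list did not pass the filter. Foxn1 had 84 and 77 at E18.5, against 36.5 and 50.4 at E12.5, and Hoxc13 had 75.5 and 58.8 at E18.5, against 55.1 and 62.2 at E12.5. Edar, a receptor of the signal that starts hair and tooth buds, had 93.7 and 104 at E18.5, against 5.83 and 10.4 at E12.5. The arrays of these stages did not overlap in Foxn1 and Edar and overlapped in Hoxc13.

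Intermediate filaments of other tissues were called in both directions. Of 12 tested, 5 rose and 0 fell at E10.5 against E7.5 (2 lower at an unadjusted p below 0.05), with Nes of neural progenitors at 3.17 ± 0.14, the neurofilaments Nefm and Nefl at 2.51 ± 0.16 and 2.38 ± 0.11, Vim of mesenchyme at 2.18 ± 0.10, and Ina, another neuronal filament, at 2.09 ± 0.13. At E18.5 against E12.5, 4 rose, including Des of muscle (2.69 ± 0.21) and the lamin Lmna (1.95 ± 0.17), and 5 fell, including Ina (-2.23 ± 0.16) and Nefm (-1.65 ± 0.19). The median of the 12 was 0.75 in the earlier comparison and -0.23 in the later one, beside 0.11 and -0.09 for all genes. Of all genes tested, 16.0% rose and 7.49% fell in the earlier comparison, and 15.2% rose and 6.44% fell in the later one.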

How the data were processed

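The deposited values are of unit intensity: linear MAS5 signals that the authors computed, per the submitters' processing notes, with the version not given in the sources used here. On every array the mean without the lowest and highest 2% was 500. Per the labels, RNA came from a lipid tissue kit and one-cycle labelling, on Affymetrix Mouse Genome 430 2.0 arrays. The number of arrays limits the precision.

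Of 45101 probe sets, 34958 carry a single symbol. A gene took its probe set with the highest mean log2 value. Values were analysed as log2(signal + 25.9), and 14045 of 18194 genes passed the filter (above the array median on at least 2 arrays). One limma fit (3.58.1, R 4.3.3, eBayes with trend, 12 residual degrees of freedom) held a mean per stage of all 20 arrays. Tests were two-sided, adjusted by Benjamini-Hochberg over all genes tested. Promoters and chromosomes came from RefSeq tables of GRCm38.p6. On simulated data with 200 changed genes of 14045, the fit recovered 97% of changes of log2 size 2 at E10.5 against E7.5 and 89% at E18.5 against E12.5. These shares do not cover changes nearer the 2-fold limit, where some of the keratin calls lie.

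Keratins called in a comparison within an array set are named with values, and the rest by range, count or summary. The keratins, the gene lists, the array sets and the tests were chosen with earlier results of these data known, so they are not independent of them. The alternatives covered normalization, pseudocount, filter, probe sets, minimum fold, arrays in the fit, a replicate block and each array left out. Fits that drop the arrays numbered 1 up to E10.5, and fits without probe sets ending in _s_at or _x_at, were added after the data were seen.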

Additional observations from a re-analysis of the deposited data

How the results depend on the processing

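Of 81 changes of single keratins that were called, the alternatives gave 1234 values in all, of which 1121 stayed called in the same direction, 113 kept the direction without the call, and 0 reversed. At E8.5 against E7.5 the count of 1 became 4 under quantile normalization, 2 with scaling by the 75th percentile, 3 with a pseudocount 4 times smaller, 0 with one 4 times larger or a filter at the 75th percentile, 7 with no minimum fold and 4 without the arrays numbered 1 up to E10.5. With the smaller pseudocount the count was 5 at E14.5 against E12.5 (8 as reported), 11 at E16.5 against E14.5 (17), 5 at E18.5 against E16.5 (10) and 10 at E10.5 against E7.5 (6). With the larger one it was 5 at E14.5 against E12.5, 3 at E10.5 against E7.5 and 3 in the F test over E7.5 to E10.5 (7). Quantile normalization gave 5 at E14.5 against E12.5. The stricter filter, which tests fewer genes, gave 18 at E18.5 against E12.5 (29), 18 in the F test over E12.5 to E18.5 (29) and 5 at E18.5 against E16.5. No minimum fold gave 11 at E10.5 against E7.5, 5 at E10.5 against E9.5 (3) and 10 at E12.5 against E10.5 (5). Apart from the filter, the cause was not tested. Leaving out each array in turn gave 1 to 4 keratins at E8.5 against E7.5, 2 to 4 at E9.5 against E8.5 (4 without the second E9.5 array), 3 to 4 at E10.5 against E9.5, 5 to 7 at E12.5 against E10.5, 5 to 5 at E14.5 against E12.5, 11 to 12 at E16.5 against E14.5, 5 to 7 at E18.5 against E16.5, 4 to 9 at E10.5 against E7.5, 28 to 29 at E18.5 against E12.5, 6 to 9 in the F test over E7.5 to E10.5 and 28 to 29 in that over E12.5 to E18.5. With the replicate number as a block, 7 keratins were called at E12.5 against E10.5 and 7 at E14.5 against E12.5. Same-numbered arrays deviated together at correlations of -0.07 to 0.28, and 14 of 20 correlated best with their own number, a hint from the data that the labels do not explain. Over all genes, a larger pseudocount called 2141 at E10.5 against E7.5, against 3303 as reported, the stricter filter 1966 at E18.5 against E12.5, against 3044, and no minimum fold 8150 and 7465 in these comparisons. Signals under the array median, where most follicle keratins lie before E16.5, limit what the arrays resolve.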
